A study of Drosophila melanogaster with 11 samples.

Results

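The regions described here are the last exon bins of Drosophila genes, the stretch of exon at the 3 prime end of each gene. An exon bin is an exon, or the piece of an exon left after exons that start or end differently between transcripts are divided. Genes with 4 or more bins were taken, and in each the bin with the highest start on the plus strand or the lowest start on the minus strand was kept when at least 2 libraries held 10 or more counts in it. This gave 4298 last bins out of 75196 bins in all, from 7359 genes with 4 or more bins among 14333 genes. The count minimum removed 3061 last bins. Just inside it were 58 bins whose second-highest library held 10 counts, and just outside were 67 bins with 9. The rule used counts and position only, and no comparison between groups.

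RNA was sequenced from cells sorted by FACS from the intestines of 5-day-old adult females. All flies carried esg>GAL4, tubGAL80.ts, UAS-RFP and nre-GFP, so GAL4 was made in progenitor cells (the escargot-expressing stem cells and enteroblasts) and a shift from 18 to 29 °C, kept for 2 days, released it from repression. Intestinal stem cells (ISC) were the diploid RFP+ fraction and enteroblasts (EB), their Notch-active daughters, the diploid RFP+ GFP+ fraction. WT-ISC and WT-EB cells came from flies with these transgenes alone, and SPEN-ISC and SPEN-EB cells from flies that also expressed an RNAi construct against split ends (spen) under the same driver. WT-EB had 2 libraries (replicates 1 and 3), and each of the other groups had 3. A further WT-EB library, which the methods describe as clustering apart, was not analysed here, so the spread of WT-EB is that of the libraries kept. The libraries held 28206027 to 31991452 counts in exon bins, and replicates of every group differed by more than counting noise.

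The last exon of most protein-coding genes holds the stop codon and the 3 prime untranslated region (3′ UTR), and its end is set where the transcript is cleaved and polyadenylated. A gene with several polyadenylation sites can make a longer or a shorter last exon, and the stretch beyond the nearer site then appears as an extension that some of its transcripts use. Proteins of the Spen family bind RNA through RNA recognition motifs and carry a SPOC domain at the C terminus, and in other systems they act in transcriptional repression, splicing and polyadenylation. The quantity followed here is usage, the counts of the last bin as a percentage of all counts of its gene, so it is read against the level of the gene and not against the library.

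The targeted gene was itself a member. The last bin of spen (FBgn0016977, BDGP5 chr2L:201589-203250, plus strand) is an extension in 4 of 8 transcripts. Its usage was 9.63%, 21.7% and 25.2% in the WT-ISC libraries and 2.76%, 9.86% and 5.96% in SPEN-ISC, and 19.7% and 42.3% in WT-EB against 10.2%, 4.58% and 9.25% in SPEN-EB. Usage was below every control in SPEN-EB, while 1 SPEN-ISC library overlapped the lowest WT-ISC library. Neither difference passed the adjusted test (limma log2 ratio −1.98 ± 0.527, adjusted p = 0.9998 in ISC, and −2.39 ± 0.510, adjusted p = 0.248 in EB). The denominator moved with it: a 12094-base internal bin of spen held 6 to 101 counts in WT-ISC and 613 to 2160 in SPEN-ISC, and 7 to 12 in WT-EB and 393 to 720 in SPEN-EB. Gene-level FPKM of spen was also higher in the RNAi groups (0.255 to 0.620 in WT-ISC and 1.61 to 5.04 in SPEN-ISC), so these files do not show lower spen RNA in the libraries labelled as RNAi. The paper attributes the higher spen signal under RNAi to expression of the double-stranded RNA, which targets the exon of the long bin above (E014). It reports reads of both orientations there with RNAi and not in wild type. How many of the counts here are such reads was not tested, so neither these counts nor the usage of the last bin measures the knockdown.

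Defining markers were read as summed FPKM. The stem cell list summed to 25.5 to 145 in WT-ISC and 5.72 to 11.5 in WT-EB, but to 24.8 to 158 in SPEN-ISC and 8.78 to 36.2 in SPEN-EB, where the fractions overlapped. Delta (Dl), the Notch ligand that marks stem cells, was at 0.172 or above in WT-ISC and at 0.0167 or below in WT-EB. The 5 enteroblast markers found, most of them E(spl) Notch targets, summed to 1180 to 1790 in WT-ISC and 1054 to 1079 in WT-EB. With RNAi this list summed to 3170 to 5179 in SPEN-ISC and 2215 to 2896 in SPEN-EB. In both genotypes it was thus higher in the fraction sorted as ISC, without overlap, which is opposite to its name. Enteroendocrine markers summed to 1272 to 2215 in WT-ISC and 100.4 to 2705 in SPEN-ISC, a wide spread between replicates, and to 15.7 to 23.1 in WT-EB and 3.17 to 11.4 in SPEN-EB. Of these, npf alone was at 1250 to 2060 in WT-ISC and 77.9 to 2550 in SPEN-ISC, so this gene carried most of the ISC sums. Enterocyte markers summed to 250 to 306 in WT-EB and 1603 to 5119 in the other groups. Visceral muscle markers were at 4.18 or below, and no marker of these lists was listed at 0 in every library. Their part in the comparisons below was not tested, and in bulk samples fewer cells of a type and less RNA per cell cannot be told apart.

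Last bins had a median width of 584.5 bases (quartiles 345 and 999.75) and carried 13.3% to 15.7% of all counts of a library on 10.6% of the exonic bases. Mean usage over the 11 libraries had a median of 24.4% with quartiles of 12.2% and 42.7%. In 785 members (18.3%) the last bin held more than 50% of the counts of its gene, and in 407 (9.47%) it held less than 5%. First bins under the same count minimum were read in genes with 20 or more counts in every library. Their library medians were 9.95% to 12.4%, and those of last bins in such genes were 16.99% to 23.5%.

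Usage differed with the place of the bin in the gene. In 3274 members (76.2%) every annotated transcript used the bin. Of these, 3056 were exons separated from the bin before by an intron, with library medians of 23.2% to 30.9%, and 218 touched the bin before, with medians of 27.6% to 37.6%. The 772 extensions used by some transcripts were lower, at 7.47% to 12.9%, and the 252 separate exons used by some transcripts had medians of 12.1% to 17.2%. Ranges of bins used by all transcripts thus lay above those of bins used by some, while the classes within each kind overlapped. In the 3329 members whose genes had 20 or more counts in every library, the medians were 20.9% to 27.5% and 27.6% to 36.3% for the first pair of classes, and 5.58% to 8.67% and 9.89% to 13.9% for the second. A later annotation (BDGP6, matched by transcript identifier and exon width) placed 2260 members over the end of the coding sequence and the 3′ UTR and 54 in the 3′ UTR only. Members were spread over the major arms, with 1078 on 3R, 890 on 2R, 834 on 3L, 732 on 2L, 700 on X and 38 on chromosome 4.

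**Figure D1:**
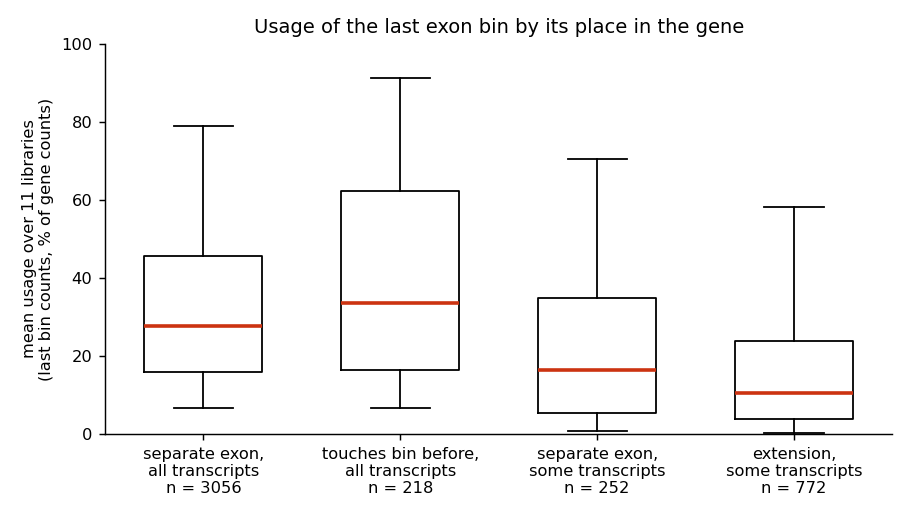
Mean usage of the last bin (last bin counts as % of gene counts, y axis) for 4 kinds of last bin (x axis). Boxes span the quartiles, red lines are medians and whiskers reach the 5th and 95th percentiles over members; bins used by all transcripts sit above those used by some.

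The members with the most counts belonged to ribosomal protein genes. RpL8 led with a mean of 281270 counts per library and a usage of 63.98% to 67.8%, with its largest value in SPEN-EB replicate 3. The last bin of sta, which encodes the ribosomal protein RpSA, stood at 48.1% to 53.4%, that of RpS10b at 64.4% to 67.7%, and that of RpL36 at 36.9% to 41.1%. In each of these 4 genes SPEN-EB replicate 3 was the highest library, and none of them was called in any comparison below (limma, adjusted p of 0.953 or more in each spen comparison). RpL19, the other of the 5 with the most counts, ranged from 46.5% to 54.2% and is described with the ribosomal proteins below.

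The lowest usages among members with a mean of 100 or more counts were also in translation genes. They were Rack1, a ribosome-bound scaffold protein, at a mean of 0.0446%, followed by RpS26 at 0.0701%, RpL12 at 0.0807%, RpL30 at 0.0878% and RpL28 at 0.113%. All 5 bins are extensions that some transcripts use, 56 to 404 bases wide. In RpS26 (BDGP5 chr2L:18442035-18442438, minus strand) the bin held 167 to 279 counts in every library.

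At the other end, usage was near 100% in Ets96B, an ETS-family transcription factor (99.9%), CG8500 (99.8%), ChLD3, a chitin deacetylase-like gene (99.7%), ppk19, a sodium channel subunit of the pickpocket family (99.7%), and CG13188 (99.7%). In Ets96B the last bin held 70 to 188 counts in every library while the rest of the gene held 0 counts in 10 libraries and 1 in the other. All 5 bins share bases with a gene on the opposite strand: Ude, CG12945, LSm7, Bub3 and PI31 in turn.

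Such sharing was common. In 1175 of the 4298 members (27.3%) at least 1 base also belonged to a bin of another gene, and in 0 of them was that gene on the same strand. The share was 25.8% among members with usage under 5%, 25.4% between 5% and 50%, 33.0% between 50% and 95%, and 72.4% (42 of 58) at 95% or more. To see whether the counts kept the strands apart, 61 pairs of opposite-strand bins were taken that share 70% or more of the longer bin and hold 200 or more counts. The smaller count of a pair was 0.859 of the larger at the median (quartiles 0.670 and 0.936), and 57 pairs had a ratio over 0.5. The library kit keeps strand, and the methods state a first-strand library mode for the analyses in general, against which these near-equal counts stand. Which setting the bin counting used was not tested. Counts of a shared bin and its opposite-strand partner are therefore treated here as ones that cannot be told apart, and the shared bases are given for the named bins below that have any.

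**Figure D2:**
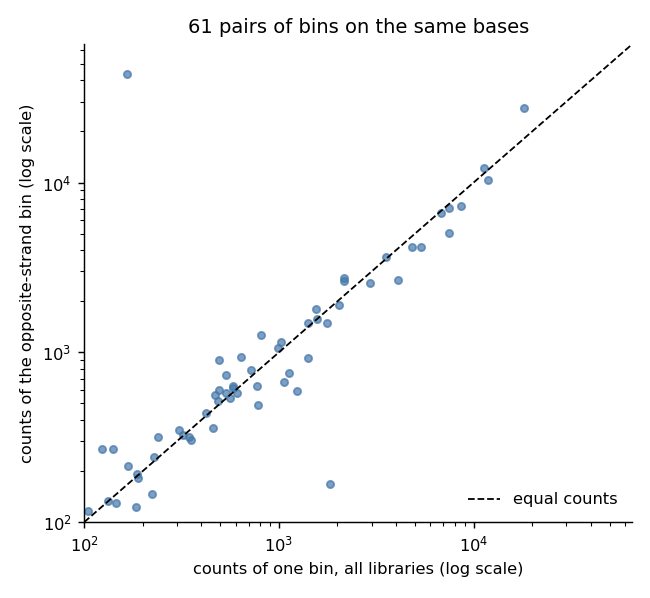
Counts summed over the 11 libraries in 61 pairs of exon bins that lie on the same bases of opposite strands, with one bin on the x axis and its partner on the y axis (both log scales, dashed line at equal counts). Most pairs lie close to the line, with a median smaller-to-larger ratio of 0.859.

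The first comparison asked whether last bins as a whole were used more or less in any group. Library medians over the 4298 members were 26.7%, 21.5% and 22.4% in WT-ISC, 25.2%, 25.6% and 20.0% in SPEN-ISC, 23.4% and 23.9% in WT-EB, and 19.5%, 23.1% and 27.1% in SPEN-EB. The groups overlapped, with SPEN-EB holding both the lowest and the highest library. Group means were 23.5% ± 2.77 (SD, n = 3), 23.6% ± 3.13 (n = 3), 23.6% ± 0.321 (n = 2) and 23.2% ± 3.83 (n = 3) in the same order. SPEN-ISC minus WT-ISC was 0.114 percentage points (exact permutation test, two-sided, p = 1.0) and SPEN-EB minus WT-EB was −0.413 points (p = 0.8, exact permutation test). Between cell types, WT-ISC minus WT-EB was −0.132 points and SPEN-ISC minus SPEN-EB 0.395 points (exact permutation p = 1.0 and 0.9). With 3 against 3 libraries the test cannot go below 0.1, and with 3 against 2 it cannot go below 0.2. Leaving out single libraries moved these differences between −0.910 and 1.92 points for the ISC effect of spen RNAi and between −2.36 and 1.47 points for the EB effect, so 1 library decides the sign of each.

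The libraries differed along the length of transcripts. A 3 prime coverage index was computed for each library as the median over 714 genes of log2 of the counts per base in the bins on the 3 prime side of the middle of the gene to that on the 5 prime side, with the first and last bins left out so that members do not enter it. It was 0.110, 0.103 and 0.0666 in WT-ISC, 0.132, 0.160 and 0.0233 in SPEN-ISC, 0.0289 and 0.0337 in WT-EB, and 0.0140, 0.129 and 0.262 in SPEN-EB. SPEN-EB replicate 1 was the lowest and SPEN-EB replicate 3 the highest, and they stayed so when terminal bins were kept or when only genes of 1000 or more counts were used, although the sign of the index changed in most libraries with those choices. Over the 11 libraries the index and the median usage of last bins had a Pearson r of 0.747 (permutation p = 0.00582) and a Spearman rho of 0.782 (permutation p = 0.00648), the adjusted p-values over the 2 relations computed being the same. Without SPEN-EB replicates 1 and 3, the libraries farthest from the median index, r was 0.571 over 9 libraries. No group holds 6 libraries, so no correlation within a group is given.

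**Figure D3:**
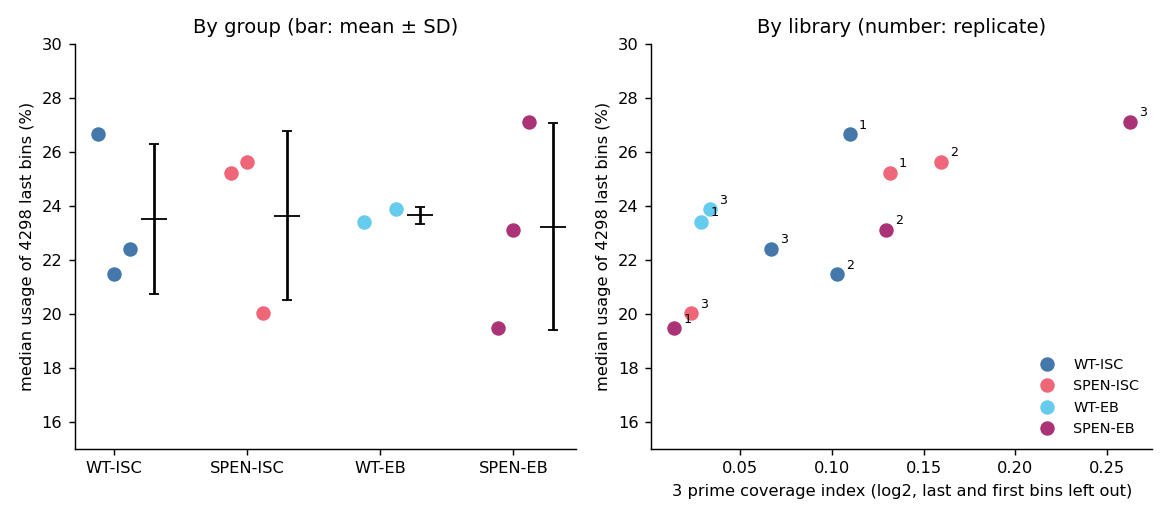
Left, median usage of the 4298 last bins in each library by group (points, with bars for mean ± SD). Right, the same medians against the 3 prime coverage index (log2, first and last bins left out), with the replicate number beside each point; SPEN-EB replicates 1 and 3 lie at the ends of both axes.

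Gene length showed where the libraries parted. In genes with less than 2 kb of exon (1315 members of the genes with 20 or more counts in every library) the library medians of usage lay between 17.9% and 21.6%. They lay between 18.6% and 25.6% for 2 to 4 kb (1348 members), and between 13.0% and 25.8% above 4 kb (666 members). In the longest class WT-ISC stood at 25.8%, 15.9% and 17.8% and SPEN-EB at 13.0%, 19.7% and 23.5%, so replicates of these groups lay further apart than the group means of 18.7% to 21.5%. The last bin was covered less per base than the gene around it in short genes (0.614 to 0.720 of the gene's mean coverage) and more in genes above 4 kb (1.04 to 1.83).

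**Figure D4:**
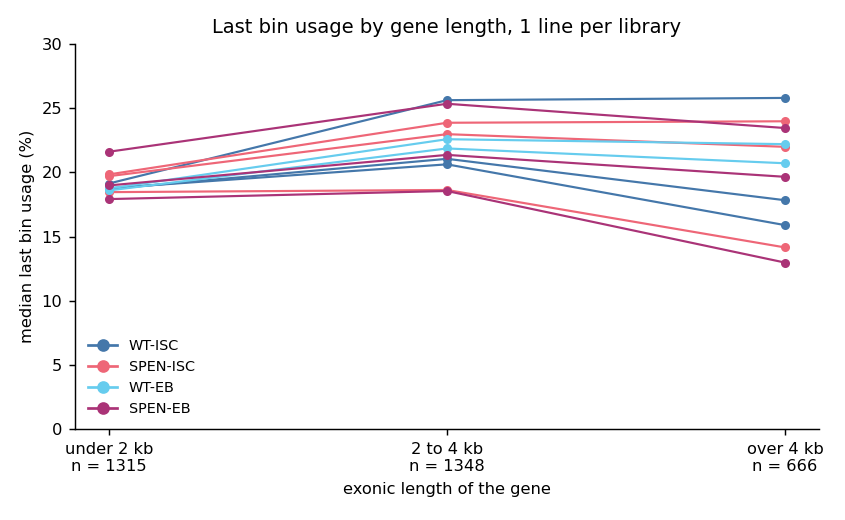
Median usage of last bins (y axis, % of gene counts) in genes of 3 exonic length classes (x axis), with 1 line per library coloured by group. The lines lie within 17.9% to 21.6% below 2 kb and spread to 13.0% to 25.8% above 4 kb.

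Single last bins were then compared between groups with limma on log2 of the bin's counts over the other counts of its gene, with p-values adjusted over all bins tested. The log2 ratio reported is that of these odds. For spen RNAi in EB, 4 of 3565 members tested were called at an adjusted p under 0.05, where 0.0795% of all bins tested were called. Of these, 3 were used more in SPEN-EB (0.0378% of all bins) and 1 less (0.0416%). An unadjusted p under 0.05 was reached by 304 members (5.85% of all bins). DESeq2 on bin and rest called 8 members (0.231% of all bins) and edgeR's diffSpliceDGE called 0 (0.0114%). On simulated data with known changes in these libraries edgeR recovered none of them, so its counts here and below are not read as a lack of change. In the same simulated data DESeq2 called more unchanged genes than its threshold allows. The median log2 ratio was 0.0304 over the members tested and −0.0101 over all bins. Its sign over the members turned with 1 library or the covariate, at 0.159 without SPEN-EB replicate 1, −0.113 without SPEN-EB replicate 3 and −0.161 with the coverage index as a covariate. All 4 called bins share bases with an opposite-strand gene. A fit that left every shared bin out of bin and gene could not test these 4 again. Of the 2588 other members in it, 0 were called (0.0544% of all bins), and 193 had an unadjusted p under 0.05 (1298 of the 23913 bins in that fit).

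CG2909 had the largest of the called changes. Its last bin (FBgn0030189, BDGP5 chrX:10222445-10222979, plus strand, end of the coding sequence and 3′ UTR) held 76.3% and 75.7% of the gene's counts in WT-EB and 26.9%, 36.9% and 38.8% in SPEN-EB. The groups did not overlap, and usage was lower by 2.57 ± 0.252 on the log2 scale (limma log2 ratio −2.57, adjusted p = 0.00327). The bin itself was at 6.498 ± 0.226 CPM (counts scaled by the total of the library) in WT-EB (SD, n = 2) and 7.31 ± 2.66 in SPEN-EB (n = 3). The other bins of CG2909 went from 2.05 ± 0.0173 to 13.6 ± 1.75 CPM. In ISC the usage was 63.99%, 49.7% and 59.4% in WT-ISC and 29.8%, 37.4% and 30.2% in SPEN-ISC, again without overlap, with a log2 ratio of −1.50 ± 0.226 that was not called (limma adjusted p = 0.130). Of the 535 bases, 70 also belong to the last bin of Gip, whose counts were 2136 and 2280 in WT-EB and 706, 1249 and 1421 in SPEN-EB.

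CG15093 was used more in SPEN-EB. Its last bin (FBgn0034390, BDGP5 chr2R:14663174-14664331, minus strand) covers 1158 of the gene's 1308 exonic bases. Usage was 76.3% and 76.9% in WT-EB and 89.1%, 86.6% and 90.9% in SPEN-EB, a log2 ratio of 1.31 ± 0.157 (limma adjusted p = 0.00921), and the groups did not overlap. The rest of the gene went from 10.6 ± 0.685 to 3.22 ± 0.493 CPM, and the bin from 34.7 ± 1.48 to 26.8 ± 9.11. In ISC the values were 79.7%, 79.1% and 79.4% against 92.4%, 90.2% and 87.6% with RNAi, a log2 ratio of 1.22 ± 0.163 (limma adjusted p = 0.0670). Of this bin, 985 bases are shared with CR43964, a gene on the opposite strand. A bin of CR43964 over 947 of those bases held 1010 and 955 counts in WT-EB, where the CG15093 bin held 1142 and 1055, and 651, 643 and 1200 in SPEN-EB, where it held 639, 620 and 1176.

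CG1665 (last bin FBgn0033451, BDGP5 chr2R:5728449-5728667, plus strand) was used more in SPEN-EB. Usage was 25.4% and 25.9% in WT-EB and 44.98%, 40.8% and 50.4% in SPEN-EB, and the log2 ratio was 1.28 ± 0.187 (limma adjusted p = 0.0337). In ISC it went from 22.5%, 27.4% and 28.8% to 42.3%, 48.8% and 51.6%, a log2 ratio of 1.34 ± 0.181 that was not called (limma adjusted p = 0.0671). Neither pair of groups overlapped. The bin shares 83 of its 219 bases with CG1599, whose own bin there held 170 and 245 counts in WT-EB and 274, 373 and 698 in SPEN-EB.

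The last bin of CG32109 (FBgn0052109, BDGP5 chr3L:12739397-12739870, plus strand) held 17.5% and 18.7% of the counts in WT-EB and 31.3%, 31.4% and 30.7% in SPEN-EB. The log2 ratio was 1.03 ± 0.155 (limma adjusted p = 0.0415). In ISC the groups overlapped, at 20.6%, 34.1% and 20.1% against 26.8%, 32.7% and 31.3%. It shares 155 of its 474 bases with Klc, the kinesin light chain gene, whose bin there held 24 and 33 counts in WT-EB and 88, 62 and 81 in SPEN-EB.

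Without WT-EB replicate 1, 0 members were called, and without WT-EB replicate 3, 1 member that is not among these 4; the lone WT-EB library is then assumed to vary like the other group. Without SPEN-EB replicate 1, the library of lowest coverage index, 44 members were called (0.871% of all bins), and with the coverage index as a covariate 132 were called (1.34% of all bins). The covariate turned the balance of directions, to 19 members used more (0.537% of all bins) and 113 used less (0.802%). Over the 14 alternatives run for each gene, the adjusted p of CG2909 and of CG15093 was under 0.05 in 11, that of CG1665 in 9 and that of CG32109 in 7. The log2 ratio kept its sign in all of them. In the limma and DESeq2 fits it lay between −2.92 and −2.37 for CG2909 and between 1.14 and 1.47 for CG15093. It lay between 1.09 and 1.43 for CG1665 and between 0.975 and 1.09 for CG32109. The edgeR values (−1.10, 0.217, 0.823 and 0.786 in turn) set the bin against the gene as a whole. They are not odds and cannot be compared in size with the others.

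**Figure D5:**
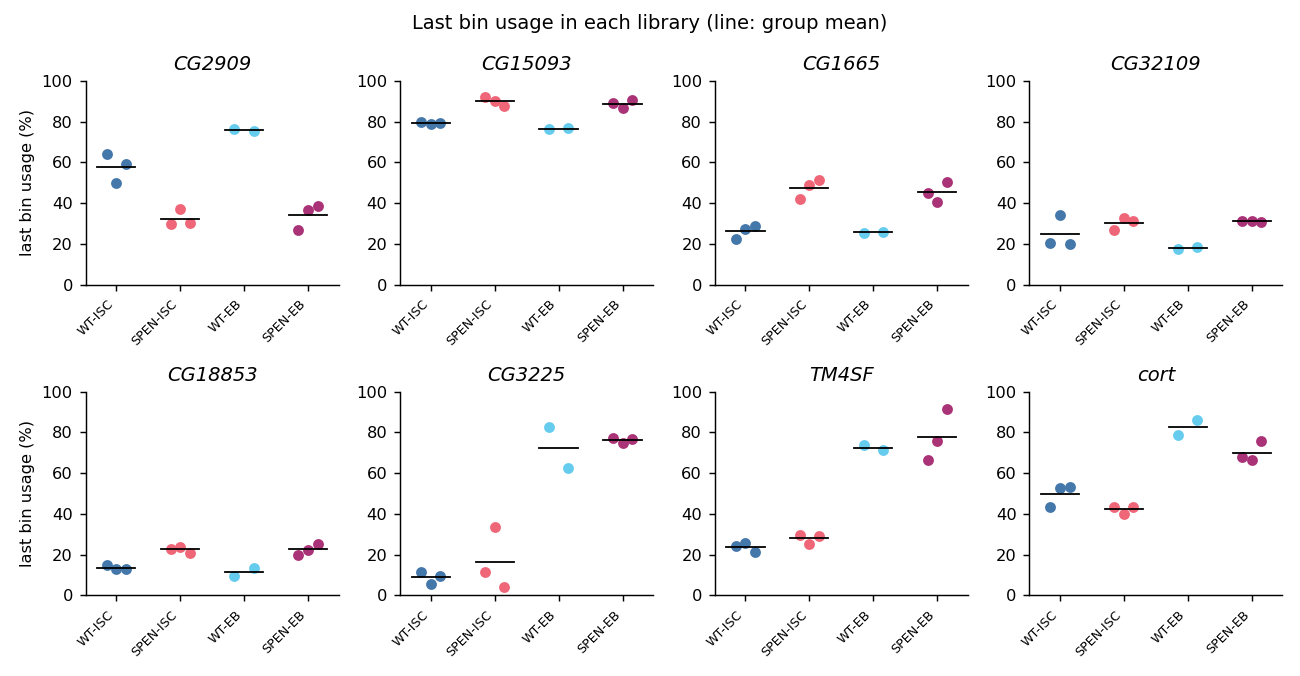
Usage of the last bin (y axis, % of gene counts) in each library of the 4 groups for 8 genes, with a line at the group mean. CG2909, CG15093, CG1665 and CG32109 were called in EB with spen RNAi; CG18853, CG3225, TM4SF and cort were not called in any comparison by the limma test.

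For spen RNAi in ISC, 0 of 3820 members tested were called (limma, 0.0243% of all bins), and 140 members had an unadjusted p under 0.05 (3.43% of all bins). DESeq2 called 6 (0.132% of all bins) and edgeR 0 (0.0104%). The median log2 ratio was 0.0215 over the members and −0.000559 over all bins, and over the members it rested on single libraries. Leaving out SPEN-ISC replicate 3 gave 0.128, while the median was below 0 when SPEN-ISC replicate 1 (−0.0366), its replicate 2 (−0.0259) or WT-ISC replicate 2 (−0.0292) was left out. The 5 members of smallest p were CG15093, CG1665, piwi, CG18853 and CG2909, of which CG15093, CG1665 and CG2909 are described above.

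In piwi, the Argonaute of the piRNA pathway known from fly gonads, the last bin held 81.5%, 84.7% and 77.8% of the gene's counts in WT-ISC and 51.4%, 46.9% and 49.3% in SPEN-ISC. These groups did not overlap, but the difference was not called (limma log2 ratio −2.19 ± 0.338, adjusted p = 0.119). It rests on few counts in the controls: the rest of the gene held 5, 13 and 6 counts in WT-ISC and 104, 51 and 145 in SPEN-ISC. The bin shares 191 of 1336 bases with SCAR, an actin regulator.

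CG18853 shares 17 of its 386 bases with CG30382. Its usage was 14.8%, 13.1% and 13.0% in WT-ISC and 22.9%, 23.9% and 20.9% in SPEN-ISC (limma log2 ratio 0.879 ± 0.136, adjusted p = 0.119). In EB it was 9.61% and 13.6% against 20.0%, 22.4% and 25.4% with RNAi (log2 ratio 1.16 ± 0.220, limma adjusted p = 0.140). The RNAi libraries lay above every control in both cell types. Neither difference was called, although the EB one passed in 6 of 14 alternatives (lowest adjusted p = 0.000211) and the ISC one in 2 of 15 (lowest 0.00208), with a highest adjusted p of 1.0 in both (limma, edgeR or DESeq2).

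The ISC and EB effects of spen RNAi come from separate libraries. The paper describes sorting both fractions simultaneously, and whether ISC and EB libraries of a genotype came from the same flies was not established here. Over the 3487 members tested in both, 1957 (56.1%) had the same sign. Of the 297 with an unadjusted p under 0.05 in EB, 218 (73.4%) had the same sign in ISC. An unadjusted p under 0.05 in both was reached by 34 members, of which 31 had the same sign and 16 are shared with an opposite-strand gene. Sharing of signs was counted over members only and not over all bins, so it is not known to be particular to last bins. The difference between the EB and ISC effects was tested as an interaction over all 11 libraries. It called 0 of 4157 members by limma (0.0% of all bins), with 89 at an unadjusted p under 0.05 (2.41% of all bins), 0 by DESeq2 (0.0% of all bins) and 0 by edgeR (0.00296%). The median log2 interaction was −0.000780 over members and −0.00655 over all bins.

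Tsp42Ea, a tetraspanin gene, had the smallest p of the interaction. Its last bin (FBgn0029508, BDGP5 chr2R:2891410-2891766, plus strand, shared with no other gene) held 6.01%, 6.10% and 6.14% in WT-ISC and 5.06%, 5.05% and 5.09% in SPEN-ISC. In EB it held 5.44% and 5.38% in WT-EB and 6.88%, 5.87% and 7.62% in SPEN-EB, so the groups did not overlap in either cell type and lay in opposite order. Neither difference was called (limma log2 ratio −0.279 ± 0.0475, adjusted p = 0.192 in ISC, and 0.342 ± 0.116, adjusted p = 0.668 in EB). The interaction was 0.62 ± 0.123 on the log2 scale and did not pass the adjustment (limma adjusted p = 0.9999). The others of the 5 smallest p were CG13325 and CG14627, with at most 16 and 31 counts in a library, mib2, a ubiquitin ligase, and AP-50, a clathrin adaptor subunit. In mib2 usage was 29.1% and 27.3% in WT-EB and 49.7%, 41.2% and 43.9% in SPEN-EB, while WT-ISC and SPEN-ISC overlapped between 37.9% and 53.7%.

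Between the cell types of wild-type flies, 0 of 3664 members were called by limma (0.0365% of all bins), with 235 at an unadjusted p under 0.05 (5.11% of all bins). DESeq2 called 10 (0.179% of all bins) and edgeR 0 (0.0%). Without WT-ISC replicate 1 the limma test called 107 members (1.24% of all bins). That library had the highest usage in WT-ISC and a median of 29 counts per member, against 78 and 51 in the other WT-ISC libraries. Between the cell types with spen RNAi, 0 of 3746 members were called by limma (0.00355% of all bins), 113 had an unadjusted p under 0.05 (2.27% of all bins), and DESeq2 called 8 (0.0745% of all bins) and edgeR 0 (0.0%). The median log2 ratio of ISC to EB was −0.0238 over members in wild type and −0.0397 with RNAi, beside −0.00554 and 0.00298 over all bins. Over the 3517 members tested in both, which come from separate libraries, 1762 (50.1%) had the same sign, and of the 31 with an unadjusted p under 0.05 in both, 30 had the same sign and 19 are shared. These signs too were counted over members only.

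CG3225 had the smallest p of both comparisons without being called. It passed in 5 of 14 alternatives in wild type (adjusted p from 1.24e-05 to 1.0 over limma, edgeR and DESeq2) and in 4 of 15 with RNAi (1.23e-06 to 1.0). The bin held 5, 3 and 4 counts in WT-ISC and 13, 6 and 4 in SPEN-ISC, but 151 and 96 in WT-EB and 131, 125 and 360 in SPEN-EB, while the rest of the gene stood at 1.42 ± 0.284 CPM in WT-ISC (SD, n = 3) and 1.42 ± 0.599 in WT-EB (n = 2). Usage was 5.66% to 11.6% in WT-ISC and 62.3% to 82.5% in WT-EB (limma log2 ratio −4.56 ± 0.717, adjusted p = 0.135), and 4.30% to 33.3% in SPEN-ISC and 74.9% to 77.5% in SPEN-EB (−4.49 ± 0.520, limma adjusted p = 0.0829). Of the 245 bases, 189 are shared with CG15629 on the opposite strand. The FPKM of CG15629 was 0.159 to 1.15 in the ISC libraries and 19.8 to 60.2 in the EB libraries, and its bin over 178 of the shared bases held 2 to 16 counts in the ISC libraries and 42 to 194 in the EB libraries.

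TM4SF, a tetraspanin gene, was at 21.4% to 26.0% in WT-ISC and 25.2% to 29.7% in SPEN-ISC, and at 71.4% and 73.7% in WT-EB and 66.7% to 91.4% in SPEN-EB. The log2 ratio was −2.98 ± 0.552 in wild type and −3.0005 ± 0.506 with RNAi (limma adjusted p = 0.176 and 0.562). The rest of the gene held 3 to 9 counts in the EB libraries, and 44 of 430 bases are shared with CG4882. In cort, an activator of the anaphase-promoting complex known from female meiosis, the last bin shares no base with another gene. Its usage was 43.2%, 52.8% and 53.4% in WT-ISC, 43.4%, 40.0% and 43.3% in SPEN-ISC, 78.7% and 86.4% in WT-EB, and 68.0%, 66.7% and 75.6% in SPEN-EB. All 5 EB libraries lay above all 6 ISC libraries, and the differences were not called (−2.12 ± 0.381, limma adjusted p = 0.156 in wild type, and −1.71 ± 0.289, adjusted p = 0.562 with RNAi). Idh, isocitrate dehydrogenase, was at 89.8% to 91.4% in WT-ISC and 86.5% and 87.6% in WT-EB (limma log2 ratio 0.536 ± 0.0839, adjusted p = 0.135), and SPEN-ISC (89.1% to 92.9%) overlapped SPEN-EB (86.4% to 90.7%). In tho2, a THO complex subunit, WT-ISC stood at 8.38% to 10.9% and WT-EB at 30.6% and 37.8% (limma log2 ratio −2.32 ± 0.405, adjusted p = 0.1375). The tho2 bin held 6 to 48 counts in WT-ISC and 15 and 17 in WT-EB. With RNAi the cell types overlapped, at 5.19% to 34.2% in SPEN-ISC and 6.13% to 14.3% in SPEN-EB. CG4991 and CG10566 (61 bases shared with CG10565), the remaining ones of smallest p with RNAi, held 85.7% to 92.7% and 88.9% to 91.5% in SPEN-EB and 56.9% to 58.3% and 62.0% to 70.2% in SPEN-ISC, with 3 to 10 counts in the rest of each gene in SPEN-EB.

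Shared bins made up 26.9% of the members tested for spen RNAi in ISC and 38.6% of those at an unadjusted p under 0.05, and 27.2% and 38.2% in EB. The corresponding shares were 27.1% and 38.3% between the wild-type cell types, 27.0% and 43.4% between the cell types with RNAi, and 26.2% and 28.1% for the interaction, where 2 of the 10 members of smallest p were shared. These shares are a description, and their differences were not tested. Of the members called by DESeq2, 5 of 6 were shared for spen RNAi in ISC, 5 of 8 in EB, 5 of 10 between the wild-type cell types and 5 of 8 between those with RNAi.

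Cytoplasmic ribosomal proteins form the largest list, with 60 members from 61 genes of 4 or more bins. Their library medians of usage were 12.9% to 16.2%, and 0 were called in any comparison by limma. With spen RNAi 8 of 60 in ISC and 11 of 59 in EB reached an unadjusted p under 0.05, each of them with higher usage in the RNAi libraries. Over all members tested this level was reached by 140 of 3820 in ISC and 304 of 3565 in EB (3.43% and 5.85% of all bins). The median log2 ratio of the list was 0.0716 in ISC and 0.0962 in EB, beside 0.0215 and 0.0304 over all members. RpS21, RpL19 and RpS3A were among them in both cell types.

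In RpL19 (BDGP5 chr2R:20855968-20856574, minus strand) usage was 46.6%, 47.0% and 49.7% in WT-ISC, 49.1%, 50.8% and 50.4% in SPEN-ISC, 46.5% and 46.8% in WT-EB, and 47.8%, 51.7% and 54.2% in SPEN-EB. The EB groups did not overlap, and within SPEN-EB the values stood in the order of the coverage index (0.0140, 0.129 and 0.262). The log2 ratio was 0.134 ± 0.0499 in ISC and 0.266 ± 0.0999 in EB (limma adjusted p = 0.9998 and 0.748), and the EB difference passed the threshold without SPEN-EB replicate 1 (log2 ratio 0.366, limma adjusted p = 0.00505). In RpS21 (BDGP5 chr2L:2856769-2857041, plus strand), whose last bin belongs to 1 of 3 transcripts, usage was 0.244%, 0.325% and 0.328% in WT-ISC and 0.345%, 0.377% and 0.384% in SPEN-ISC, and 0.181% and 0.244% in WT-EB and 0.330%, 0.264% and 0.264% in SPEN-EB. Both pairs of groups were apart, with log2 ratios of 0.314 ± 0.115 and 0.436 ± 0.148 that were not called (limma adjusted p = 0.9998 and 0.674). The RpS21 bin held 504 to 731 counts in every library.

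Usage in mRpL16, a mitochondrial ribosomal protein, was 8.98% and 7.81% in WT-EB and 14.2%, 11.8% and 14.6% in SPEN-EB (limma log2 ratio 0.773 ± 0.172, adjusted p = 0.248, but 0.0303 without SPEN-EB replicate 1), and 82 of its 207 bases are shared with arm, the beta-catenin gene, whose bin there held 652 and 642 counts in WT-EB and 969, 934 and 1729 in SPEN-EB. In RpL3 usage was 15.7% to 16.3% in WT-ISC and 16.5% to 17.7% in SPEN-ISC, and 15.2% and 15.9% in WT-EB and 15.9% to 21.3% in SPEN-EB. RpS7 stayed at 6.39% to 7.76% and RpL17 at 65.4% to 68.8%, with overlap of the RNAi and control groups in both cell types. Ubi-p63E, a polyubiquitin gene, was at 0.244% and 0.352% in WT-EB and 0.488% to 0.543% in SPEN-EB (limma log2 ratio 0.758 ± 0.267, adjusted p = 0.705), and the ISC groups overlapped. PGRP-LB, which degrades peptidoglycan, stayed at 22.7% to 30.1%. The last bin of N, the Notch receptor, held 5 to 131 counts, that of Dl 0 to 117 and that of nito, the other fly Spen-family gene, 1 to 18, with at most 2 counts of Dl or nito in a WT-EB library. All 226 bases of the nito bin are shared with CG8726.

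The remaining lists held no called member in any comparison by limma. Of 11 members among cleavage and polyadenylation genes, 10 were tested for spen RNAi, and CG1109 alone reached an unadjusted p under 0.05 for spen RNAi, with log2 ratios of 0.453 ± 0.150 in ISC and 0.929 ± 0.217 in EB (limma adjusted p = 0.9998 and 0.293), and its bin is shared with Xe7. The median log2 ratios of the list were 0.0700 and 0.0464, beside 0.0215 and 0.0304 over all members. Of 8 members in the list of the Spen family and m6A methylation, 7 were tested in each cell type, and spen and CG7358 reached an unadjusted p under 0.05 in ISC and spen in EB. Among 16 Notch pathway members, 9 were tested in EB and 14 in ISC, and nct, a gamma-secretase subunit whose bin is shared with HdacX, did so in EB with a lower usage (−1.14 ± 0.470, limma adjusted p = 0.825), and Su(dx), a ubiquitin ligase, in ISC with a higher one. Of 10 progenitor and lineage regulators, 9 were tested in EB, and hop, the fly JAK kinase, whose bin is shared with Pa1, and ttk were lower in EB at that level. CycD alone of the 9 mitosis and cell cycle members tested in EB did so, and 0 of the splicing and RNA-binding genes tested did so in either cell type with spen RNAi.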

How the data were processed

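The labels describe a stranded TruSeq protocol on poly(A)-enriched RNA, and also name a rRNA removal kit. The authors aligned reads with TopHat2 2.0.6 to BDGP5 and deposited raw counts per exon bin (split for DEXSeq, which was not run here) and gene-level FPKM, used for markers only. Their columns of fold changes and p-values, and 16 columns that repeat per-sample counts, were not used. The members, gene lists and rules were chosen with earlier results of these data known.

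Usage was tested with limma 3.58.1 (R 4.3.3) on log2 of bin over rest-of-gene counts with an offset of 0.5, precision weights with an added variance of 0.01, a robust variance trend and Benjamini-Hochberg adjustment over all bins (called at 0.05). Bin and rest each needed 10 counts in a number of libraries equal to the size of the smaller group. Alternatives were edgeR 4.0.16, DESeq2 1.42.0, minimums of 1 and 50 counts, an offset of 2, no weights, the rest without the first bin, a coverage covariate, a replicate block, fits without each library and, chosen after seeing the data, fits without shared bins and median usage over well-counted or unshared genes. On simulated data with known changes, for the spen comparisons, limma recovered most of the larger changes and fewer of the smaller ones, edgeR recovered none, and DESeq2 recovered the most but made more calls in unchanged genes than its threshold allows. The simulation used the same spread for every bin and no coverage differences between libraries, so the tools may behave otherwise on the real counts. The p-values measure the spread between libraries, which may in part be technical. Named genes are called members or, where fewer than 3 were called, the 5 of smallest p, a fixed list of genes the study examined, and the 5 of highest usage, lowest usage and highest counts. The values of a gene that these rules would name are not reported here.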

Additional observations from a re-analysis of the deposited data

Results flagged for a closer look

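Usage of the Tsp42Ea last bin lay in opposite order with spen RNAi in ISC and EB, with neither difference called (limma adjusted p = 0.192 and 0.668): every SPEN-ISC library lay below every WT-ISC library, and every SPEN-EB library lay above every WT-EB library. The interaction was 0.62 ± 0.123 on the log2 scale (limma adjusted p = 0.9999, n = 11 libraries), so the difference between the cell types did not pass the test over all bins. With 3 libraries or fewer in each group, no single library could be assessed as standing apart within its group.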

How the results depend on the processing

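The counts of members called depended on the processing. With every library kept, the differences in median usage moved by less than the larger SD of the groups compared (2.77 to 3.83 points). Leaving out 1 library cannot move a group mean by as much as its SD, so those fits do not test this. They turned the sign of each difference, also between cell types (−1.71 to 0.892 points in wild type and −1.49 to 2.34 with RNAi). Beside each count of members, the bins called among all bins tested are given in brackets. For spen RNAi in ISC, where 0 were called, DESeq2 called 6 (38 of 28839) and the coverage covariate 2 (15 of 28839). A minimum of 1 count gave 2 (22 of 44661), the rest without the first bin 1 (8 of 27719), and fits without single libraries 0 to 1 (3 to 11 of 28839). For spen RNAi in EB, where 4 were called, edgeR called 0 (3 of 26419), DESeq2 8 (61 of 26421) and the covariate 132 (354 of 26421). A minimum of 50 counts gave 2 (13 of 14467) and no precision weights 2 (16 of 26421). Leaving out shared bins, chosen after seeing the data, gave 0 (13 of 23913), but took those 4 out of the test. Without SPEN-EB replicate 1, 44 were called (230 of 26421), without its replicate 2, 5 (35 of 26421), and without its replicate 3, 7 (48 of 26421). Fits without a WT-EB library leave 1 in that group and are described above. Between wild-type cell types, where 0 were called, DESeq2 called 10 (49 of 27367) and the covariate 1 (7 of 27367). A minimum of 1 count gave 2 (19 of 44697), no precision weights 1 (5 of 27367), and fits without single WT-ISC libraries 0 to 107 (4 to 338 of 27367). Between cell types with RNAi, where 0 were called, DESeq2 called 8 (21 of 28192) and the covariate 2 (10 of 28192). A minimum of 1 count gave 1 (3 of 43692), and fits without single libraries 0 to 2 (0 to 5 of 28192). The interaction called 0 members throughout. The cause of these differences was not tested. Because edgeR recovered no known change in simulated data, which lacked coverage differences between libraries, its counts of 0 are not read for or against a call.

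With a replicate block, 1 member was called for spen RNAi in ISC (6 of 28839 bins) and 101 in EB (360 of 26421 bins). Between wild-type cell types 10 members were called (56 of 27367 bins). Same-numbered libraries had correlations of −0.444 to 0.310, so the numbers were not taken to pair libraries. In EB and between wild-type cell types the block left 1 residual degree of freedom. Members with few counts, groups of 3 or 2 libraries and bins shared with an opposite-strand gene limit what these counts can show.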
